A study of Mus musculus with 24 samples.

Results

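Integrins are the receptors through which fibroblasts hold on to the extracellular matrix. Each is a pair of an alpha and a beta chain: the beta 1 chain pairs with many alpha chains, among them the collagen receptors alpha 1 and alpha 11, the fibronectin receptor alpha 5, the laminin receptors alpha 3 and alpha 7 and the RGD-binding alpha 8, while the alpha v chain also pairs with beta 3 and beta 5 to bind vitronectin and other ligands that carry the RGD motif. Inside the cell the beta tails bind talin and kindlin, which switch the receptor on and tie it to actin, and ligand-bound integrins signal through focal adhesion kinase and integrin-linked kinase. The genes described here are the 10 integrin subunits of that set, Itga1, Itga3, Itga5, Itga7, Itga8, Itga11, Itgav, Itgb1, Itgb3 and Itgb5. They were taken by name with all their probes, 24 of the 41174 probes on the array, and 18 of these probes and 9 of the 10 genes were bright enough to test, among 19358 probes and 13488 genes tested in all.

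The RNA came from mouse embryonic fibroblasts, primary connective tissue cells isolated at embryonic day 13.5 from C57BL6 crosses between CHIP (+/-) animals. Stub1 encodes CHIP, which attaches ubiquitin to proteins held by heat shock chaperones. The wildtype, CHIP (+/+), and CHIP null, CHIP (-/-), cultures stayed at 37 °C (controls) or were exposed to 43 °C (heated), with time labels of 30 or 240 min, all in medium with β-mercaptoethanol, and each of the 8 groups has 3 arrays from replicates that the labels call biological. Every array carries the sample RNA in Cy5 and the same commercial mouse reference RNA in Cy3, and a level below is the log2 of sample over reference. The labels do not say how many embryos the cultures of a genotype came from, so the p-values below may not cover the spread between embryos.

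Stub1 read -0.24 to -0.01 on the 12 wildtype arrays and -2.43 to -1.72 on the 12 CHIP null arrays, so the arrays matched their genotype labels. Replicate arrays correlated at 0.968 to 0.988 over all probes. The share of probes well above background was 32.9% to 41.6% on the 12 arrays labelled 30 min and 44.0% to 48.6% on the 12 labelled 240 min, and the 2 sets were scanned at different times. Time cannot be told apart from the scan set. The columns of the authors' processed value table matched, for all 24 arrays, the scanner file of the other time label at r of at least 0.9996, so which label is right is not settled; times below are those of the scanner files. The arrays also differ in sex-linked RNA. On the 6 wildtype arrays labelled 30 min Xist was not well above background and the Y-linked genes Eif2s3y and Ddx3y were; on the other 18 arrays Xist was measured and both Y-linked genes were not. Comparisons of the wildtype 30 min arrays with CHIP null or 240 min arrays therefore also set apart cultures that differ in these genes, and the part of that difference in the results was not tested. All 12 fibroblast markers of a list of 12 were bright enough to test, and so were 10 of 12 macrophage and 4 of 7 endothelial markers. Lyz2 and Marco of macrophages and Kdr of endothelium were well above background on all 24 arrays. Ptprc and Cybb of the macrophage list, Pecam1 and Tek of the endothelial list and the white blood cell subunits Itgam and Itgax were so on 0 arrays. These genes were picked for their detection, after it was seen. In such bulk RNA, fewer cells of a type and less RNA per cell cannot be told apart.

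RefSeq promoter windows, from 250 bases before to 50 after a gene's start on GRCm38.p6, matched 8 of the 10 subunits with 9 entries. Itga7 and Itgb3 had none. The windows printed here are those of Itga11, whose level differed most between the genotypes, Itgb1 and Itgav, which had the largest falls with heat, and Itgb5, the one entry with a heat shock element core. Capitals mark matches, on either strand, to the heat shock element core GAANNTTC, the GC box GGGCGG and the AP-1 site TGANTCA. Each is read 5′ to 3′ on the strand of its gene, at chr9:62677605-62677904 (plus strand) for Itga11, chr8:128685404-128685703 (plus) for Itgb1, chr2:83724147-83724446 (plus) for Itgav, inside the annotated gene, and chr16:33829415-33829714 (plus) for Itgb5.
Itga11: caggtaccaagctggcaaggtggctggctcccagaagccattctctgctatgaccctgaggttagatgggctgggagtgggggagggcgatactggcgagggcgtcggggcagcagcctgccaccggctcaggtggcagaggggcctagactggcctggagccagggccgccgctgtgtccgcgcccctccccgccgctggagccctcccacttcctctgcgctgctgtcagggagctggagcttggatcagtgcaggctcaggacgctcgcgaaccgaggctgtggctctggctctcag
Itgb1: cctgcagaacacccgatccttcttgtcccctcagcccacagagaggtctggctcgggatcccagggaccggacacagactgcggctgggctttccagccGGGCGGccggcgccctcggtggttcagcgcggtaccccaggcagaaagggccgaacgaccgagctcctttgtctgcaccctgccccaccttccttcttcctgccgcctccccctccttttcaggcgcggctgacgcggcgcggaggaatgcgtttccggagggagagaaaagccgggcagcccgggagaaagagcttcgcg
Itgav: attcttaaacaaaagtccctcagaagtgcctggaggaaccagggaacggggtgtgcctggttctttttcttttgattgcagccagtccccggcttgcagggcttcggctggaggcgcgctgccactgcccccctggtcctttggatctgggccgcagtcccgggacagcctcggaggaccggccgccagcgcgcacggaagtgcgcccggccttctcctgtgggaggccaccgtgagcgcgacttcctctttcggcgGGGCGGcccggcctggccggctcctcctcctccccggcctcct
Itgb5: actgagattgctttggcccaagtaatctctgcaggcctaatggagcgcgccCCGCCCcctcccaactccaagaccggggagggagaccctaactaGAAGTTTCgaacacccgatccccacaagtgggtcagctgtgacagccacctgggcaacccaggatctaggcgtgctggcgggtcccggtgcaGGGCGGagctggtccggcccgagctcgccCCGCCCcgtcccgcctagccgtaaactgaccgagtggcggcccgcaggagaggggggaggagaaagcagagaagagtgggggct
The heat shock element core was found in 1 of the 9 entries, against 7.86% of the 32851 promoter windows in the RefSeq table. A GC box was found in 6 of the 9, against 35.7% of all windows, and an AP-1 site in 1 of the 9, in Itga3, against 7.81%. Matches of different motifs did not overlap in these windows. The Itga11 window holds none of the 3.

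CHIP null cells had more RNA of the collagen receptor chain Itga11 than wildtype cells in all 4 comparisons, about 2-fold. At the 240 min label they also had more Itga5, Itgb5 and, on its brighter probe only, Itgb3. Itga3, a laminin receptor chain, was lower in CHIP null cells in all 4 on its brightest probe. Itga8 was higher in CHIP null cells at 30 min and lower at 240 min, and Itgb1 was lower at 30 min only, on its brightest probe. In control cells at 30 min 5 of the 9 tested subunits differed between the genotypes, 3 higher and 2 lower in CHIP null, by limma with Benjamini-Hochberg adjustment at 0.05. Of all genes tested, 34% differed in this comparison, 14.7% higher and 19.4% lower. In heated cells at 30 min 5 subunits differed, 2 higher and 3 lower (27.5% of all genes, 14.2% higher and 13.3% lower). In control cells at 240 min 6 differed, 4 higher and 2 lower (13.1% of all genes, 4.8% higher and 8.26% lower), and in heated cells at 240 min 6 differed, 4 higher and 2 lower (13% of all genes, 4.66% higher and 8.3% lower). The arrays of the genotypes did not overlap for 5, 6, 9 and 6 of the 9 subunits in the same order, against 44.6%, 38.8%, 31.6% and 27.4% of all genes. The split of calls moved with the scaling. Under median centring it was 3 higher and 1 lower, 1 and 2, 4 and 1, and 3 and 2, and with the Feature Extraction log ratio 3 and 3, 3 and 3, 4 and 1, and 4 and 1, in that order. Over all 13488 genes median centring called 2866, 1539, 833 and 1208, of which 66.9%, 29%, 38.2% and 8.1% were higher. The log ratio called 4768, 5304, 1182 and 1182, of which 46.5%, 47.2%, 37% and 36.3% were higher. The median over the 9 was -0.07, -0.06, 0.13 and 0.09 in the same order, against -0.01, 0.01, -0.02 and -0.01 over all genes.

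**Figure D1:**
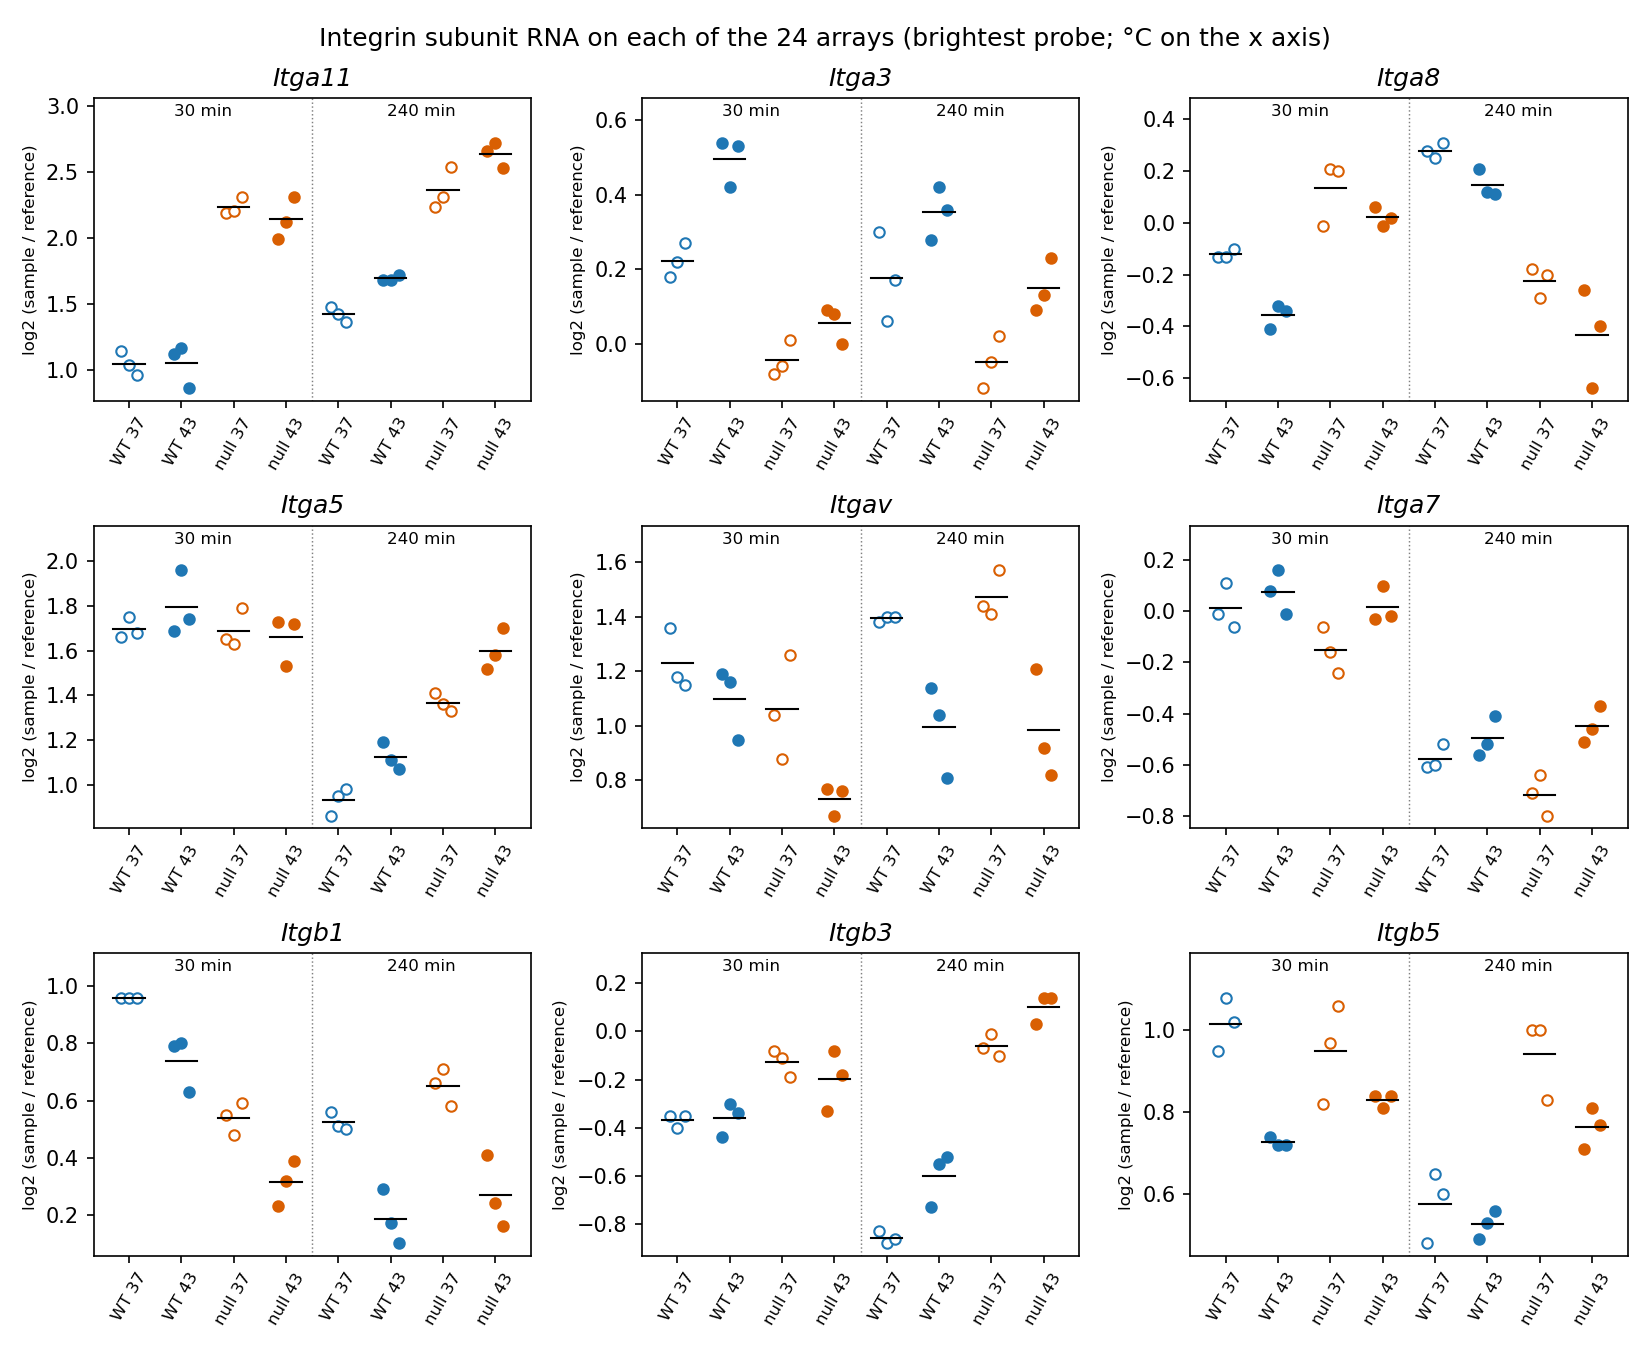
Level of the 9 tested integrin subunits on each of the 24 arrays. Each panel is 1 gene by its brightest probe; the y axis is log2 of sample over reference, the x axis the 8 groups (WT, wildtype in blue; null, CHIP null in orange; open points 37 °C, filled 43 °C), each point 1 array and each black line the mean of 3. Every CHIP null array of Itga11, from 1.99 to 2.72, lies above every wildtype array, from 0.86 to 1.72, and the lowest Itgb3 values, from -0.88 to -0.83, are the wildtype controls labelled 240 min.

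Itga11 showed the largest difference of the set. On the wildtype arrays at 30 min it read 1.14, 1.04 and 0.96 in controls and 1.12, 1.17 and 0.86 in heated cells, and the CHIP null arrays at 30 min read 2.19, 2.20 and 2.31 in controls and 1.99, 2.12 and 2.31 in heated cells. At 240 min wildtype read 1.48, 1.42 and 1.36 in controls and 1.68, 1.68 and 1.72 in heated cells, and CHIP null read 2.23, 2.31 and 2.54, then 2.66, 2.72 and 2.53. No wildtype array reached the lowest CHIP null array. The difference was 1.19 ± 0.08 (SE, log2) in controls at 30 min, 2.27-fold (limma adjusted p = 3.6e-12), 1.09 ± 0.08 in heated cells at 30 min, 2.13-fold (adjusted p = 2.2e-11), and 0.94 ± 0.08, 1.92-fold, in both treatments at 240 min (adjusted p = 1.5e-09 and 2e-09). In order of level, the wildtype groups stood lowest, with the 30 min control and heated groups overlapping at means of 1.05, then the 240 min controls at 1.42 and heated cells at 1.69. The CHIP null groups followed, each overlapping its neighbour, from 2.14 in heated cells at 30 min to 2.64 in heated cells at 240 min. The gene has 1 probe on the array, A_51_P417720, and lies at chr9:62677855-62783979 on GRCm38.p6. Over the 24 arrays the genes most like it in pattern were Ccn5 (r = 0.977), Slc16a3 (r = 0.952) and Ada (r = 0.95); these are correlations over arrays that share groups, given as a description.

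Itgb3, the beta chain that pairs with alpha v, differed between the genotypes mainly at 240 min, but only on 1 of its 2 probes. On the brighter probe, A_52_P553890, wildtype controls at 240 min read -0.83, -0.88 and -0.86 and heated cells -0.73, -0.55 and -0.52. CHIP null controls at 240 min read -0.07, -0.01 and -0.10 and heated cells 0.03, 0.14 and 0.14. Both CHIP null groups lay wholly above both wildtype groups. The difference was 0.79 ± 0.06 in controls (1.73-fold, limma adjusted p = 2.7e-10) and 0.70 ± 0.06 in heated cells (1.63-fold, adjusted p = 3.6e-09). At 30 min the wildtype arrays read -0.35, -0.40 and -0.35 in controls and -0.44, -0.30 and -0.34 in heated cells, and the CHIP null arrays -0.08, -0.11 and -0.19, then -0.33, -0.08 and -0.18. The control groups did not overlap (0.24 ± 0.06, adjusted p = 0.0047) and the heated groups did (0.16 ± 0.06, adjusted p = 0.06). The second probe, A_51_P237893, gave genotype differences of 0.04, 0.10, 0.08 and -0.06 (controls and heated cells at 30 min, then at 240 min), and none of the 4 passed the test at the probe level. The array design ties the second probe to the RefSeq transcript of Itgb3 and the brighter one to a cDNA clone only, and which transcript the brighter probe reads was not tested. Itgb3 lies at chr11:104608000-104670476. The genes nearest to the brighter probe in pattern over the 24 arrays were Plac8 (r = 0.948), Tln2 (r = 0.933), the talin paralogue, and P4ha2 (r = 0.895), a subunit of collagen prolyl hydroxylase.

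**Figure D2:**
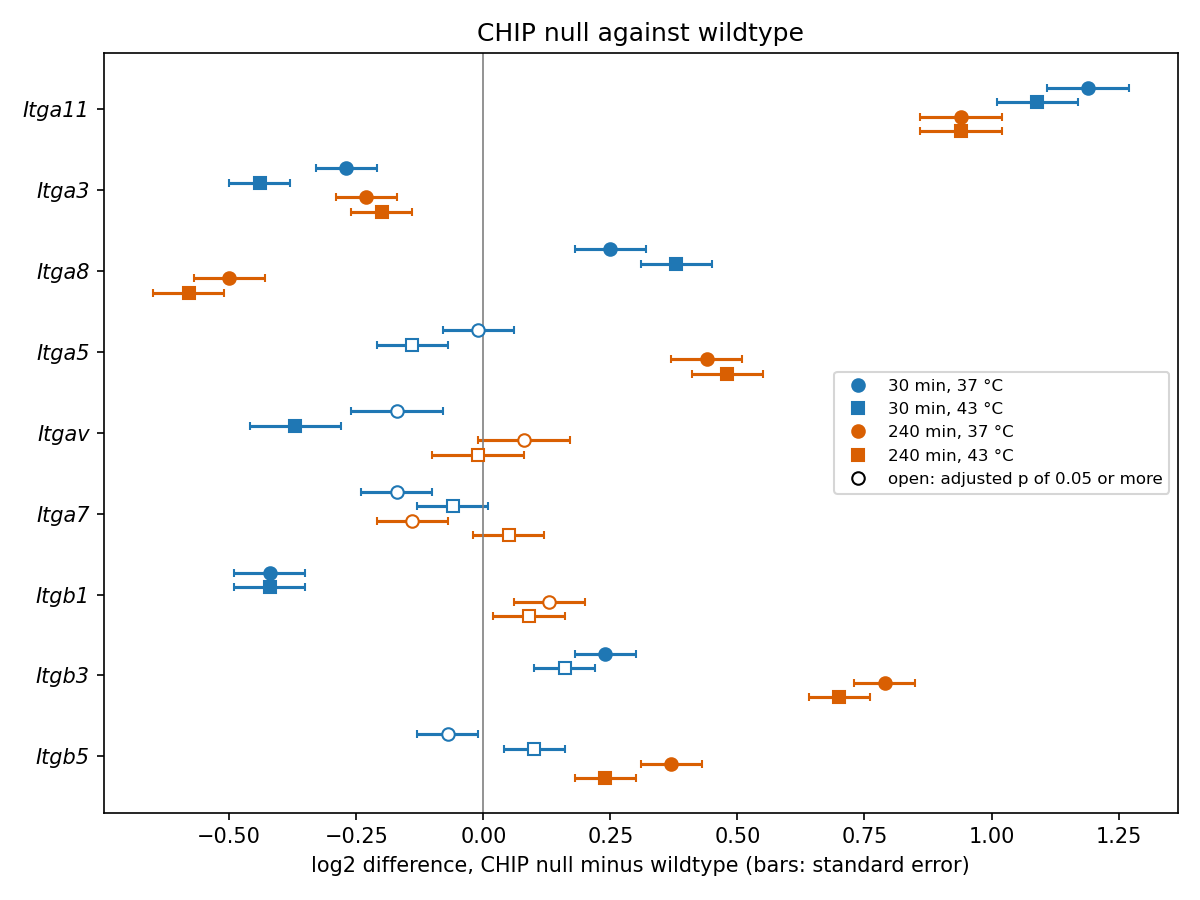
Genotype differences of the 9 tested subunits. The x axis is the log2 difference, CHIP null minus wildtype, with bars for the standard error of the limma fit (3 arrays a group); circles are 37 °C and squares 43 °C, blue 30 min and orange 240 min, and filled symbols passed at an adjusted p below 0.05. Itga11 lies at 0.94 to 1.19 in all 4, Itga8 lies above 0 at 30 min and below 0 at 240 min, and Itga5 and Itgb5 lie near 0 at 30 min and above it at 240 min.

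Itga5, the alpha chain of the classical fibronectin receptor, did not differ detectably between the genotypes at 30 min (-0.01 ± 0.07 in controls and -0.14 ± 0.07 in heated cells, adjusted p = 0.93 and 0.16). The wildtype arrays at 30 min read 1.66, 1.75 and 1.68 in controls and 1.69, 1.96 and 1.74 in heated cells, and the CHIP null arrays 1.65, 1.63 and 1.79, then 1.73, 1.53 and 1.72. At 240 min wildtype read 0.86, 0.95 and 0.98 in controls and 1.19, 1.11 and 1.07 in heated cells, against 1.41, 1.36 and 1.33, then 1.52, 1.58 and 1.70, in CHIP null. These 4 groups of the 240 min label did not overlap one another. The genotype difference was 0.44 ± 0.07 in controls (1.35-fold, adjusted p = 4.1e-05) and 0.48 ± 0.07 in heated cells (1.40-fold, adjusted p = 1.1e-05). Itgb5, the other vitronectin receptor beta chain, has 1 probe and was also higher in CHIP null at 240 min only. Its controls at 240 min read 0.48, 0.65 and 0.60 in wildtype and 1, 1 and 0.83 in CHIP null, without overlap (0.37 ± 0.06, 1.29-fold, adjusted p = 8.4e-05), and its heated cells 0.49, 0.53 and 0.56 against 0.71, 0.81 and 0.77 (0.24 ± 0.06, 1.18-fold, adjusted p = 0.01). With the slide as a block the Itgb5 differences were 0.37 and 0.38 and no longer passed (adjusted p = 0.08 and 0.081), while those of Itga11, Itga5 and Itgb3 at 240 min passed. No slide held both genotypes at the same treatment and time. The block links them only through arrays of the other treatment, so it cannot set genotype fully apart from slide. Without replicate 2 of the heated CHIP null arrays at 240 min the Itgb5 call in heated cells was lost (lowest value over single arrays left out, 0.21).

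Itga8, the alpha chain of a receptor for RGD ligands such as nephronectin, changed the sign of its genotype difference with the time label. In controls at 30 min it read -0.13, -0.13 and -0.10 in wildtype and -0.01, 0.21 and 0.20 in CHIP null, and in heated cells -0.41, -0.32 and -0.34 against 0.06, -0.01 and 0.02. In controls at 240 min it read 0.28, 0.25 and 0.31 in wildtype and -0.18, -0.29 and -0.20 in CHIP null, and in heated cells 0.21, 0.12 and 0.11 against -0.26, -0.64 and -0.40. The genotypes were apart on every array in each of the 4 comparisons. CHIP null was higher by 0.25 ± 0.07 and 0.38 ± 0.07 at 30 min (controls and heated, adjusted p = 0.0064 and 0.00013) and lower at 240 min, by -0.50 ± 0.07 and -0.58 ± 0.07 (1.42-fold and 1.49-fold, adjusted p = 6.7e-06 and 9.1e-07). The second tested probe had the same signs, with 0.15 (not past the test), 0.27, -0.36 and -0.26 in that order. With the slide as a block only the difference in heated cells at 240 min passed (-0.58, adjusted p = 0.017).

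Itgb1, the shared beta 1 chain, was lower in CHIP null cells at 30 min, where controls read 0.96, 0.96 and 0.96 in wildtype and 0.55, 0.48 and 0.59 in CHIP null, and heated cells 0.79, 0.80 and 0.63 against 0.23, 0.32 and 0.39. The difference was -0.42 ± 0.07 in both treatments (1.34-fold, adjusted p = 9.3e-06 and 1.1e-05). The probe has 10 spots on each array, which were averaged. At 240 min the difference was 0.13 ± 0.07 and 0.09 ± 0.07 and did not pass (adjusted p = 0.25 and 0.47). A second Itgb1 probe, A_52_P351816, gave -0.08 and -0.17 at 30 min and did not pass there, and with the slide as a block the control difference on the main probe was -0.29 (adjusted p = 0.11) and the heated one -0.38 (adjusted p = 0.032). One more Itgb1 probe, for the muscle splice form beta 1D, was well above background on 0 of 24 arrays. Itgav, the alpha v chain, differed between the genotypes in heated cells at 30 min only, at 1.19, 1.16 and 0.95 in wildtype and 0.77, 0.67 and 0.76 in CHIP null (-0.37 ± 0.09, adjusted p = 0.0038), and its second probe gave -0.08 there. With the slide as a block that Itgav difference was -0.50 and did not pass (adjusted p = 0.056).

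Itga3 was lower in CHIP null cells by -0.27 ± 0.06 and -0.44 ± 0.06 at 30 min (controls and heated, adjusted p = 0.0013 and 2.9e-06) and by -0.23 ± 0.06 and -0.20 ± 0.06 at 240 min (adjusted p = 0.013 and 0.032). Its 24 values ran from -0.12 to 0.54, and the heated wildtype arrays at 30 min held the highest group mean, at 0.54, 0.42 and 0.53. The genotypes did not overlap in any of the 4 comparisons. Of its 2 other probes 1 passed at 30 min only (-0.25 and -0.36) and the other, A_51_P230405, in heated cells at 240 min only, where its heated CHIP null arrays were not well above background, so that the size of the difference is not given. With the slide as a block only the Itga3 difference in heated cells at 30 min passed (-0.39, adjusted p = 0.027), the others being -0.29, -0.37 and -0.34 (adjusted p = 0.11, 0.08 and 0.14). Its control call at 240 min was lost without replicate 1 of either genotype, and the heated call at 240 min without replicate 2 or 3 of wildtype or replicate 1 or 2 of CHIP null, with values of -0.29 to -0.16 and -0.24 to -0.17 over single arrays left out. Itga7, the laminin receptor chain of muscle, did not pass between the genotypes on its brightest probe, with differences from -0.17 to 0.05. Its second probe was lower in CHIP null controls at 30 min (limma adjusted p = 0.023). That probe was not well above background in CHIP null there, so that the size of the difference is not given. Itga1, the second collagen receptor chain, could not be tested by its brightest probe, which was well above background on 2 arrays. A dimmer Itga1 probe, A_51_P268944, was above background on 18 arrays, all but the 6 CHIP null arrays at 30 min, so that no fold is given there. At 30 min it read 0.27, 0.13 and 0.24 in wildtype controls and 0.07, 0.16 and 0.11 in CHIP null, and 0.23, 0.36 and 0.27 against -0.06, -0.03 and 0.18 in heated cells. The controls overlapped and did not pass the limma test (adjusted p = 0.28). The heated groups did not overlap and passed (adjusted p = 0.0055).

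**Figure D3:**
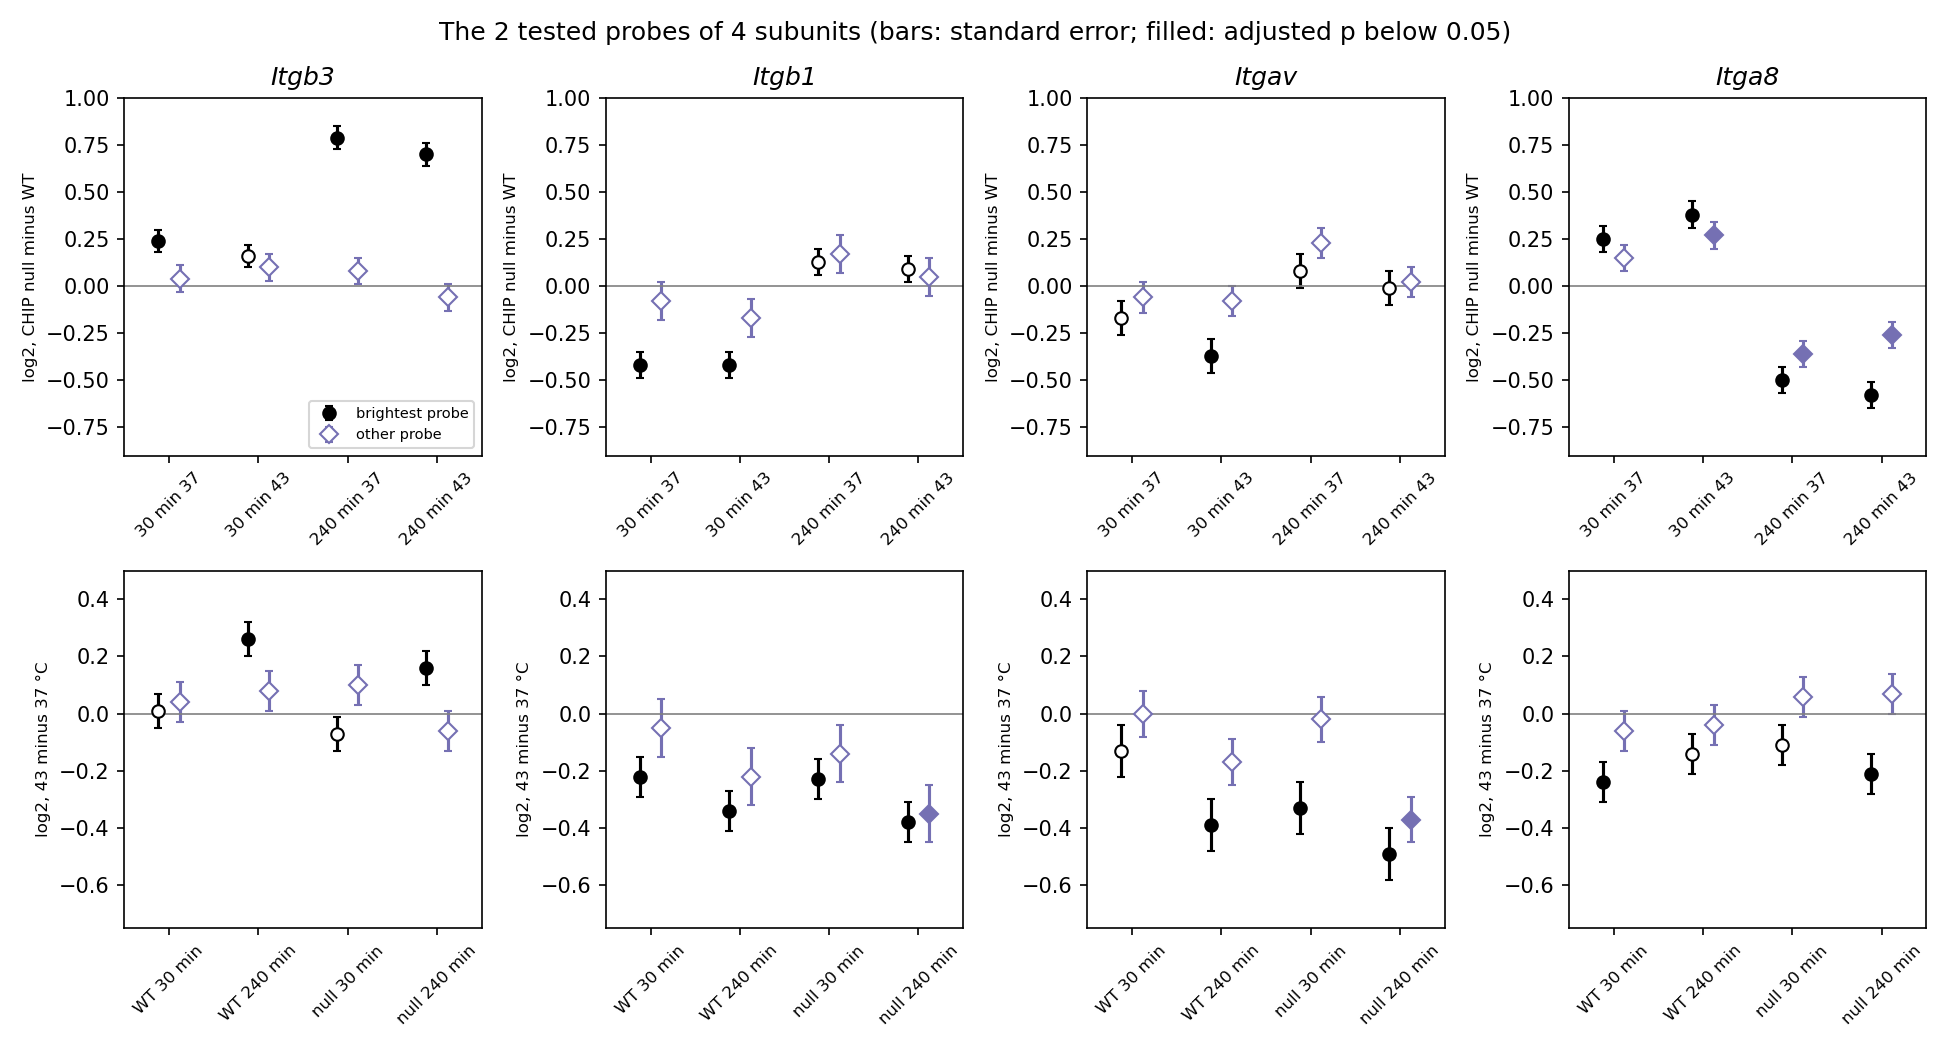
The 2 tested probes of Itgb3, Itgb1, Itgav and Itga8. The upper row is the genotype difference (CHIP null minus wildtype, log2) and the lower row the heat difference (43 minus 37 °C, log2) with standard error bars; black circles are the brightest probe, purple diamonds the other, and filled symbols passed at an adjusted p below 0.05 over all probes. The 2 Itgb3 probes part at 240 min (0.79 against 0.08 in controls), the 2 Itga8 probes have the same sign in all 4 genotype comparisons, and for Itgb1 both fell with heat in CHIP null cells at 240 min.

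The change of the genotype difference with the time label was itself tested, in a comparison added after the data were seen. In controls it passed for 5 of the 9 subunits, 4 positive and 1 negative (18.1% of all genes, 9.14% positive and 8.92% negative), Itgb1 (0.55), Itgb3 (0.56), Itga5 (0.44), Itgb5 (0.44) and Itga8 (-0.76), and in heated cells for 4, 3 positive and 1 negative (17.7% of all genes, 7.25% positive and 10.5% negative), Itgb1 (0.51), Itgb3 (0.54), Itga5 (0.62) and Itga8 (-0.96). Itga11 did not pass (-0.24 and -0.15, adjusted p = 0.16 and 0.43). These differences contain the wildtype 30 min arrays, whose Xist and Y-linked levels stand apart. At 240 min Xist read -1.87 to -1.64 in wildtype and -1.99 to -1.58 in CHIP null, and the Y-linked genes were not well above background in either. Whether the 240 min cultures of the genotypes differed in other ways was not tested. The second probe of Itga8 passed in both treatments too (-0.51 and -0.53), and those of Itgb1 (0.25 and 0.22) and Itgb3 (0.03 and -0.17) did not.

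Other cell type markers moved with the genotype as well. Of 10 tested macrophage markers of a list of 12, 0 were higher and 10 lower in CHIP null controls at 30 min (median -0.44), 0 and 3 in heated cells at 30 min, 0 and 5 in controls at 240 min and 0 and 4 in heated cells at 240 min. Their mean level was -0.37 to -0.32 in wildtype controls at 30 min, -1.01 to -0.88 in heated wildtype and -1.28 to -1.15 over the CHIP null arrays at that time. At 240 min it was -1.43 to -1.17 in wildtype and -1.83 to -1.48 in CHIP null. Of the 12 fibroblast markers 7 were higher and 1 lower in CHIP null controls at 30 min, 9 and 1 in heated cells at 30 min and 6 and 2 in both treatments at 240 min, while Krt18 and Krt8, keratins of simple epithelia, were lower in CHIP null controls at 240 min (-1.20 and -0.95). Of 6 epithelial markers tested 0 were higher and 1, 4, 1 and 2 lower in CHIP null (controls at 30 and 240 min, then heated cells at 30 and 240 min). Of 9 skeletal muscle markers 0, 0, 0 and 1 were higher and 2, 4, 1 and 3 lower, of 6 smooth muscle markers 0, 3, 0 and 1 higher and 3, 1, 2 and 1 lower, and of 4 endothelial markers 0 higher and 2 lower in each. Of 2 megakaryocyte markers 1 was higher and 1 lower in controls and 1 higher in heated cells at 30 min, with 0 called at 240 min. Of all genes 14.7%, 14.2%, 4.8% and 4.66% were higher in CHIP null (controls and heated cells at 30 min, then at 240 min). Lower were 19.4%, 13.3%, 8.26% and 8.3% in that order. The part of the cell type markers in the integrin differences was not tested.

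By their brightest probes, heat lowered the beta 1 chain in both genotypes and at both times and alpha v in 3 of the 4 comparisons. The second probe of each passed in CHIP null at 240 min only. Several other subunits rose slightly at 240 min. In wildtype cells 4 of the 9 tested subunits changed at 30 min, 1 higher and 3 lower (14.6% of all genes changed, 6.77% higher and 7.79% lower), and 6 at 240 min, 4 higher and 2 lower (31.5% of all genes, 18.8% and 12.7%). In CHIP null cells 3 changed at 30 min, 1 higher and 2 lower (35.2% of all genes, 22.6% and 12.6%), and 9 at 240 min, 5 higher and 4 lower (39% of all genes, 24.5% and 14.5%). Controls and heated arrays did not overlap for 4, 6, 3 and 7 of the 9 in that order, against 31.7%, 51.7%, 44.6% and 46% of all genes. The medians over the 9 were 0, 0.08, -0.09 and 0.16, against 0.01, 0.06, 0.03 and 0.07 over all genes. The rises depended on the scaling. With each array centred on its median in place of loess, 0 subunits were called higher in any of the 4, and 0, 2, 7 and 4 were called lower. Of all 13488 genes 619, 1851, 5254 and 4690 were then called, and only 4.2%, 4.3%, 0.8% and 0.4% of these calls were higher. The median of all genes was then -0.18 in both CHIP null comparisons, and Itga3, Itga5, Itga11 and Itgb3 turned from higher to -0.03, -0.10, -0.04 and -0.18 in CHIP null at 240 min. Relative to that shift Itga3, Itga5, Itga11 and Itgb3 were at 0.15, 0.08, 0.14 and 0 there, and Itga7 at 0.21. Itga8 and Itgb5 were at -0.4 and -0.24, Itgb1 at -0.59 and Itgav at -0.74. Both Itgav and Itgb1 were at -0.51 in CHIP null at 30 min.

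Signal and cell type markers moved with heat too. The median Cy5 signal over background was 5.79 to 7.07 on wildtype control arrays and 5.25 to 6.30 on heated ones at 30 min, and 9.40 to 10.5 against 8.21 to 8.86 at 240 min. On CHIP null arrays it was 6.07 to 6.54 against 4.89 to 5.46 at 30 min, and 9.25 to 10.2 against 7.63 to 8.16 at 240 min, so that controls and heated arrays were apart in all but wildtype at 30 min. Of the 10 macrophage markers tested 0 were higher and 7 lower with heat in wildtype at 30 min, 4 and 0 in wildtype at 240 min, 5 and 1 in CHIP null at 30 min and 8 and 0 in CHIP null at 240 min. In the same order the 4 endothelial markers gave 1, 1, 3 and 3 higher and 0 lower, the 6 epithelial 0, 0, 2 and 3 higher and 0 lower, and the 2 megakaryocyte 0, 1, 0 and 2 higher and 1, 0, 0 and 0 lower. The 6 smooth muscle markers gave 0, 2, 2 and 1 higher and 1, 0, 0 and 0 lower, the 9 skeletal muscle 0, 0, 4 and 1 higher and 0, 1, 1 and 0 lower, and the 12 fibroblast 0, 2, 5 and 2 higher and 1, 2, 1 and 2 lower. Of all genes 6.77%, 18.8%, 22.6% and 24.5% were higher with heat and 7.79%, 12.7%, 12.6% and 14.5% lower, in that order. The part of signal and of the cell type markers in the heat changes was not tested.

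Itgb1 controls and heated cells did not overlap in any of the 4 comparisons. Wildtype controls read 0.96, 0.96 and 0.96 and heated cells 0.79, 0.80 and 0.63 at 30 min, and 0.56, 0.51 and 0.50 against 0.29, 0.17 and 0.10 at 240 min. CHIP null controls read 0.55, 0.48 and 0.59 and heated cells 0.23, 0.32 and 0.39 at 30 min, and 0.66, 0.71 and 0.58 against 0.41, 0.24 and 0.16 at 240 min. The change was -0.22 ± 0.07 and -0.34 ± 0.07 in wildtype (30 and 240 min, adjusted p = 0.023 and 0.00045) and -0.23 ± 0.07 and -0.38 ± 0.07 in CHIP null (adjusted p = 0.0089 and 0.00011), folds of 1.17 to 1.30. Within the 4 slides that hold both treatments of a genotype, each with 1 array of one treatment and 3 of the other, the differences were -0.22, -0.23, -0.31 and -0.31 in that order. With the slide as a block the CHIP null changes passed (adjusted p = 0.016 and 0.019) and the wildtype changes did not (0.19 and 0.13). The second probe gave -0.05, -0.22, -0.14 and -0.35, of which the last passed. The call in wildtype at 30 min was lost without control replicate 1 or 2 or heated replicate 3 (-0.25 to -0.17 over single arrays left out), and that in CHIP null at 30 min without heated replicate 1 (-0.18).

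Itgav read 1.38, 1.40 and 1.40 in wildtype controls at 240 min and 1.14, 1.04 and 0.81 in heated cells, and in CHIP null 1.44, 1.41 and 1.57 against 1.21, 0.92 and 0.82. At 30 min it read 1.36, 1.18 and 1.15 against 1.19, 1.16 and 0.95 in wildtype, which overlap, and 1.04, 0.88 and 1.26 against 0.77, 0.67 and 0.76 in CHIP null, which do not. The change was -0.39 ± 0.09 (adjusted p = 0.0026) in wildtype and -0.49 ± 0.09 (adjusted p = 0.00031) in CHIP null at 240 min, and -0.33 ± 0.09 (adjusted p = 0.0084) in CHIP null at 30 min. In wildtype at 30 min it was -0.13 ± 0.09 (adjusted p = 0.38). Within slides the differences were -0.05 and -0.25 in wildtype and -0.29 and -0.59 in CHIP null, at 30 and 240 min, and with the slide as a block only the last passed. A second Itgav probe passed in CHIP null at 240 min (-0.37) and not elsewhere. The array design ties this second probe to the RefSeq transcript of Itgav and the brightest one to a cDNA clone only. Without replicate 3 of the CHIP null controls at 30 min the Itgav call at that time was lost (-0.23).

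**Figure D4:**
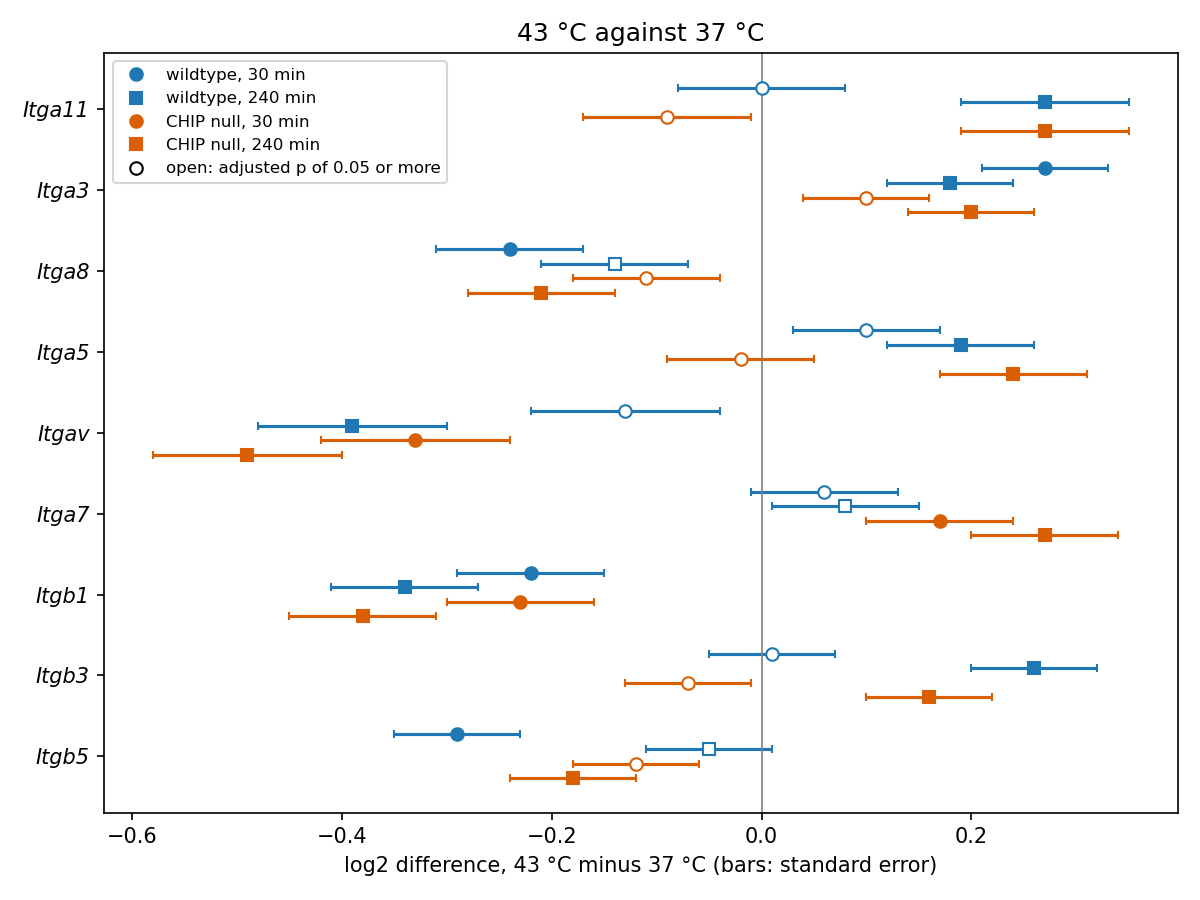
Heat differences of the 9 tested subunits. The x axis is the log2 difference, 43 °C minus 37 °C, with bars for the standard error of the limma fit (3 arrays a group); circles are 30 min and squares 240 min, blue wildtype and orange CHIP null, and filled symbols passed at an adjusted p below 0.05. All 4 Itgb1 symbols are filled and lie between -0.38 and -0.22, and the rises at 240 min stay at or under 0.27.

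The other heat changes were small. Itga11 rose by 0.27 ± 0.08 at 240 min in both genotypes (adjusted p = 0.015 in wildtype and 0.012 in CHIP null), with the CHIP null arrays overlapping its controls, and was at 0 and -0.09 at 30 min. On the same brighter probe as above Itgb3 rose by 0.26 ± 0.06 in wildtype and 0.16 ± 0.06 in CHIP null at 240 min (adjusted p = 0.0037 and 0.044), and Itga5 by 0.19 ± 0.07 and 0.24 ± 0.07 (adjusted p = 0.039 and 0.0092). Itga3 rose by 0.27 ± 0.06 in wildtype at 30 min (adjusted p = 0.0043) and by 0.18 ± 0.06 and 0.20 ± 0.06 in wildtype and CHIP null at 240 min (adjusted p = 0.034 and 0.013). Its probe A_51_P230405 ran the other way in CHIP null cells at 240 min, where 2 of the 3 control arrays and 0 of the heated arrays were well above background. Itga7 rose in CHIP null cells only by the test, by 0.17 ± 0.07 and 0.27 ± 0.07 (adjusted p = 0.048 and 0.0025), against 0.06 and 0.08 in wildtype. Itga8 fell in wildtype at 30 min (-0.24 ± 0.07, adjusted p = 0.026) and in CHIP null at 240 min (-0.21 ± 0.07, adjusted p = 0.022), and its second probe gave -0.06 and 0.07 there. Itgb5 fell in the same 2 comparisons, from 0.95, 1.08 and 1.02 to 0.74, 0.72 and 0.72 in wildtype at 30 min and from 1, 1 and 0.83 to 0.71, 0.81 and 0.77 in CHIP null at 240 min (-0.29 ± 0.06 and -0.18 ± 0.06, adjusted p = 0.0026 and 0.025). With the slide as a block none of the wildtype heat changes passed, and in CHIP null at 240 min Itga7, Itgav and Itgb1 did. Over all genes that block left 453 and 618 wildtype calls at 30 and 240 min, against 1964 and 4245 without it. Several of these small calls rested on single arrays. Leaving out 1 array ended the call of Itga11 in wildtype (replicate 3 of controls or heated, 0.24 to 0.30) and in CHIP null (control replicate 1 or heated replicate 2, 0.21 to 0.36), and of Itga5 in CHIP null (heated replicate 3, 0.19 to 0.28). At 240 min Itga5 and Itga3 in wildtype were lost without 5 and 4 of the 6 arrays in turn, and in CHIP null Itgb3 and Itgb5 without 4 each, Itga8 without 3 and Itga3 without 2. At 30 min Itga8 in wildtype was lost without 5 and Itga7 in CHIP null without 4.

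The heat response of a subunit was not shown to differ by genotype or by time. The test of the difference by genotype called 0 of the 9 at 30 min (0.445% of all genes, 0.386% positive and 0.0593% negative) and 0 at 240 min (0% of all genes, with 471 of the 13488 at an unadjusted p below 0.05), and 0 of the 9 had an unadjusted p below 0.05 at either time. The difference by time called 0 in wildtype (1.26% of all genes, 0.741% positive and 0.519% negative) and 0 in CHIP null (2.37% of all genes, 1.08% and 1.29%). Before adjustment 3 of the 9 were below 0.05 in each, Itga11, Itgb3 and Itgb5 in wildtype (0.27, 0.25 and 0.24) and Itga5, Itga11 and Itgb3 in CHIP null (0.26, 0.36 and 0.23). These tests used limma alone. Their standard errors were 0.09 to 0.13, and a p that misses the threshold does not show that the responses were alike.

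Between the control arrays of the 2 time labels, which also differ in scan set, 7 of the 9 subunits differed in wildtype, 2 higher and 5 lower at 240 min (63.6% of all genes, 27.9% higher and 35.6% lower), and 4 in CHIP null, 1 higher and 3 lower (48.7% of all genes, 19% higher and 29.6% lower). The arrays did not overlap for 8 and 4 of the 9, against 70.2% and 56.3% of all genes. Itga5 was lower by -0.77 ± 0.07 in wildtype and -0.32 ± 0.07 in CHIP null (adjusted p = 3.6e-10 and 0.00045) and Itga7 by -0.59 ± 0.07 and -0.57 ± 0.07 (adjusted p = 1.4e-08 and 1.2e-07). Itga7 read -0.01, 0.11 and -0.06 in wildtype controls at 30 min and -0.61, -0.60 and -0.52 at 240 min, and -0.06, -0.16 and -0.24 against -0.71, -0.64 and -0.80 in CHIP null. The 30 min and 240 min arrays of Itga7 did not overlap in either genotype, and its second probe had the same direction (-0.27 and -0.23). Its nearest patterns over the 24 arrays were a feature named NAP122883-1 in the array design (r = 0.975), Dhrs3 (r = 0.968) and Slc9a2 (r = 0.963). Itgb1, Itgb3 and Itgb5 were lower at 240 min in wildtype (-0.44, -0.49 and -0.44). Under median centring Itgb1 and Itgb5 were at -0.17 and -0.13 and did not pass (adjusted p = 0.32 and 0.43). These subunits were at 0.11, 0.07 and -0.01 in CHIP null, and Itga11 was higher in wildtype (0.37 ± 0.08, adjusted p = 0.00032) and at 0.13 in CHIP null. Itga8 was higher at 240 min in wildtype (0.40) and lower in CHIP null (-0.35), and Itgav was higher in CHIP null (0.41), which did not pass with the Feature Extraction log ratio (0.12, adjusted p = 0.53) or an offset of 10 (0.29, adjusted p = 0.051). The second probe of Itgb1 differed from its brightest one, at 0.08 in wildtype and 0.33 in CHIP null. That of Itgb3 was also lower in wildtype (-0.35) but was at -0.32 in CHIP null, against 0.07 on the brighter probe. Markers moved with the time label as well. In wildtype controls all 10 macrophage, 4 of 4 endothelial, 5 of 6 smooth muscle and 2 of 2 megakaryocyte markers were lower at 240 min, and in CHIP null 9, 4, 4 and 2 were, with 0 higher in either. Epithelial markers were 2 higher and 3 lower of 6 in wildtype and 0 and 6 in CHIP null, skeletal muscle markers 3 and 4, then 1 and 2, of 9, and fibroblast markers 8 and 2, then 7 and 3, of 12. Their part in the time differences was not tested. The genotype and time comparisons share their control arrays.

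Of 16 other integrin subunits 15 were on the array and 5 were tested, Itga4, Itga6, Itga9, Itgb4 and Itgb7. Itga2, Itgae, Itgam, Itgax and Itgb6 were well above background on 0 arrays. In controls at 240 min 0 of the 5 were higher and 4 lower in CHIP null (4.8% and 8.26% of all genes). Of the 9 subunits 4 were higher, Itga11, Itga5, Itgb5 and, on its brighter probe only, Itgb3, and 2 were lower, Itga8 and Itga3. Itga4, a chain of the VCAM-1 receptor, was lower by -0.69 (adjusted p = 3.1e-08) and Itga6, the laminin receptor chain that pairs with beta 1 or beta 4, by -0.66 (adjusted p = 3e-08). In heated cells at 240 min 3 of the 5 were lower and 0 higher (8.3% and 4.66% of all genes), with Itga6 at -0.52 and Itga4 at -0.48. Itga6 was also lower in CHIP null at 30 min (-0.23 in controls and -0.31 in heated cells), and Itga4 was higher there in heated cells (0.27). Over the 5, 0 were higher and 2 lower in CHIP null controls at 30 min (14.7% and 19.4% of all genes). In heated cells at 30 min 2 were higher and 1 lower (14.2% and 13.3%). Heat gave 0 and 0, then 1 and 2, in wildtype (6.77% and 7.79%, then 18.8% and 12.7%, of all genes). In CHIP null heat gave 3 and 0, then 3 and 1 (22.6% and 12.6%, then 24.5% and 14.5%).

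Of 30 genes for integrin ligands 29 were tested. In CHIP null controls at 240 min 15 were higher and 1 lower than in wildtype (median 0.19 against -0.02 over all genes), and in heated cells 12 were higher and 2 lower (median 0.19 against -0.01). Of all genes 4.8% were higher and 8.26% lower in controls, and 4.66% and 8.3% in heated cells. Spp1, the gene of osteopontin, an RGD ligand of alpha v and alpha 5 receptors, was higher by 0.62 and 0.76, Col1a1 and Col1a2, which encode the type I collagen that alpha 11 beta 1 binds, by 0.43 and 0.55 in controls and 0.47 and 0.49 in heated cells. At 30 min the list was split, 8 higher and 10 lower in controls (14.7% and 19.4% of all genes). In heated cells 11 were higher and 6 lower (14.2% and 13.3%). In controls and heated cells Spp1 was higher by 0.93 and 0.97 and Nid1, nidogen of the basement membrane, lower by -0.75 and -0.61. Ccn1, a matricellular ligand, fell with heat at 240 min (-0.57 in wildtype and -0.61 in CHIP null), as did its relative Ccn2 in CHIP null (-0.48). Over the list heat gave 2 higher and 2 lower in wildtype at 30 min, 7 and 2 at 240 min, and 12 and 0, then 9 and 3, in CHIP null. Over all genes it gave 6.77%, 18.8%, 22.6% and 24.5% higher and 7.79%, 12.7%, 12.6% and 14.5% lower, in that order.

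Among genes for the cytoplasmic adaptors 27 of 30 were tested. Between the genotypes 9 of the 27 passed in controls at 30 min, 4 higher and 5 lower (34% of all genes), and 4 at 240 min, 3 higher and 1 lower (13.1% of all genes). In heated cells 4 were higher and 2 lower at both times (27.5% and 13% of all genes). Tln2, a talin that binds beta tails, was higher in CHIP null by 0.51 in controls (adjusted p = 2.4e-07) and 0.41 in heated cells (adjusted p = 1.2e-05) at 240 min. Heat changed 8 in wildtype at 30 min, 1 higher and 7 lower (14.6% of all genes), and 12 at 240 min, 6 and 6 (31.5%). In CHIP null heat changed 8 at 30 min, 3 higher and 5 lower (35.2%), and 11 at 240 min, 4 and 7 (39%). Tns3, a tensin that links beta tails to actin, fell with heat in each of the 4 (-0.32, -0.54, -0.45 and -0.57), as Itgb1 did on its brightest probe. Of 13 membrane partners tested, 4 were higher and 3 lower in CHIP null controls at 30 min, 5 and 2 in heated cells at 30 min, 2 and 1 in controls at 240 min and 3 and 2 in heated cells at 240 min. Over all genes 14.7%, 14.2%, 4.8% and 4.66% were higher and 19.4%, 13.3%, 8.26% and 8.3% lower, in that order. Among the partners higher in controls at 240 min was Lrp1, an endocytic receptor that takes up integrins, at 0.35. Heat gave 2 partners higher and 1 lower in wildtype at 30 min, 4 and 0 at 240 min, and 5 and 1 in CHIP null at both times. Over all genes heat gave 6.77% and 18.8% higher in wildtype at 30 and 240 min and 22.6% and 24.5% in CHIP null. Lower were 7.79%, 12.7%, 12.6% and 14.5% in that order. Cav1, of caveolae, fell with heat by 0.59 at 30 min in wildtype and by 0.76 in CHIP null on the log2 scale. The counts of these lists are descriptions.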

How the data were processed

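Agilent two-colour arrays were read from the 24 scanner files, 3 per group in 8 groups, grouped by the labels. Per the file headers, the deposited spot and background intensities came from Feature Extraction 9.1.3.1, whose log10 ratio of Cy5 over Cy3 the same files hold. The authors' deposited value table, used as a score of unstated scale, matched log10 ratios divided by the natural log of 2, with heated columns less the mean of their controls. The relation comes from a comparison of its columns with the log ratios of all arrays (column medians -0.05 to 0.02), and the control mean was added back. The sources used here give no genome build for the array design.

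Intensities were background corrected (normexp, offset 50) and loess normalized within arrays with control spots at weight 0 (limma 3.58.1, R 4.3.3, the data.table package, version 1.17.8). Outlier spots (333 of 43379) were left out and spots of a probe averaged. A gene is its brightest probe, tested where a group had its 3 Cy5 signals well above background, which left 13488 genes. One limma fit of the 8 group means over 24 arrays gave every contrast, with Benjamini-Hochberg adjustment over all genes in each, and over 19358 probes for single probes. The samples are biological replicates per the labels' protocols. Since the number of embryos is unstated, the p-values measure the spread among these replicates and may not cover that among embryos of a genotype. Loess takes the typical gene at each brightness as unmoved, which hides a shift of all genes, and the number of arrays limits the precision. Other dye orientations were not run, so dye bias is shared by all arrays.

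The 10 subunits and the lists (other integrin subunits, ligands, adaptors, membrane partners and 7 marker lists) were chosen with earlier results of these data known. Beyond the subunits, a list is given by counts and at most its 3 largest called changes per comparison are named, and nearest patterns are given for the 3 subunits with the largest F statistic. Alternatives were a normexp offset of 10, median centring, the Feature Extraction log ratio, no filter, the mean of all probes, each probe, slide or replicate number as a block, the value table and each array left out. The value table and single probes were compared for the results they cover. The fit was tested on simulated data. Promoters are from the RefSeq table. Figures used Python 3.11.15 and matplotlib 3.10.9.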

Additional observations from a re-analysis of the deposited data

Results flagged for a closer look

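The genotype difference of 5 subunits changed with the time label, by a limma test of the difference itself (240 min minus 30 min, log2, Benjamini-Hochberg over all genes). In controls the change was 0.44 for Itgb5 (adjusted p = 0.00061), 0.55 for Itgb1 (7.9e-05), 0.56 for Itgb3 (4.3e-05), 0.44 for Itga5 (0.0016) and -0.76 for Itga8 (2.4e-06). In heated cells it was 0.51 for Itgb1 (adjusted p = 2e-04), 0.54 for Itgb3 (7.2e-05), 0.62 for Itga5 (3.4e-05) and -0.96 for Itga8 (4e-08). On second probes Itgb3 (0.03 and -0.17) and Itgb1 (0.25 and 0.22) did not pass, and Itga8 did (-0.51 and -0.53). Of the 5 in controls 2 passed with median centring (Itga8 and Itgb3) and 2 with the slide as a block (Itga5 and Itgb1). Of the 4 in heated cells Itgb1 did not pass with median centring nor Itgb3 with the slide. Time label and scan set cannot be told apart, and the part of the Xist and Y-linked difference of the wildtype 30 min arrays was not tested.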

How the results depend on the processing

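Of 22 genotype calls 12 held under the 8 alternatives other than the value table and single probes (another offset, median centring, the log ratio, no filter, the mean of probes, both blocks and arrays left out), among them all 4 of Itga11, and of 22 heat calls 2 held, Itgb1 and Itgav in CHIP null at 240 min. Of 11 time calls 7 held, and of 9 calls on the change of the genotype difference with time 2. Subunits called for heat in wildtype at 30 min (4) were 0 with median centring, 2 with the mean of all probes and 0 with the slide as a block, and at 240 min (6) they were 2 with median centring, 3 with the Feature Extraction log ratio and 0 with the slide. Of all 13488 genes (13543 for the mean of probes) 1964 were called at 30 min, and 619, 1392 and 453 in these settings. At 240 min 4245 were called, and 1851, 2650 and 618 in the settings named for it. In CHIP null at 30 min (3) the subunits called were 7 with median centring, 1 with the mean of probes and 1 with the slide, and at 240 min (9) 4 with median centring, 4 with the log ratio and 3 with the slide. Of all genes 4753 were called at 30 min, and 5254, 4359 and 2692 in these settings. At 240 min 5263 were called, and 4690, 2830 and 2745 in the settings named for it. Genotype calls with the slide as a block were 2 and 3 in controls (5 and 6) and 3 in heated cells at 30 min (5), where median centring gave 3. Over all genes the slide block gave 1639 and 470 in controls, against 4592 and 1762. In heated cells at 30 min it gave 1719 and median centring 1539, against 3706. Time calls in CHIP null (4) were 2 with the log ratio, and over all genes 3050 in place of 6563. The change of the genotype difference in controls (5) was called for 2 with median centring and for 2 with the slide. Over all genes it was called for 784 and 699, in place of 2436. The cause of these shifts was not tested. Heat values that reversed in CHIP null at 240 min were Itga3 (-0.03 with median centring, and -0.19 on another probe that was not well above background in the heated arrays), Itga5 (-0.10 with median centring), Itga11 (-0.04) and Itgb3 (-0.18), both with median centring. The median of all genes under that centring was -0.18 there. Relative to it Itga3, Itga5, Itga11 and Itgb3 were at 0.15, 0.08, 0.14 and 0. The columns of the authors' value table hold the arrays of the other time label, so by its labels it compares other arrays and shows nothing about processing: 2 subunits called in CHIP null at 240 min, Itga11 at -0.09 and Itgb3 at -0.10 there (-0.09 and -0.07 at 30 min in the scanner files), Itga5 at 0.33 in CHIP null at 30 min (0.24 at 240 min) and Itgb3 at -0.02 in wildtype at 240 min (0.01 at 30 min). The Itgb3 time difference in CHIP null was -0.13 with the mean of probes. With single arrays left out the heat counts ran from 2 to 4, 3 to 5, 1 to 4 and 4 to 8, and the change of the heat effect by time in CHIP null from 0 to 1. With the replicate block the counts were the main ones, except 6 in place of 5 for genotype in heated cells at 30 min, where Itgb3 passed. The numbers did not pair the samples, since the correlation of deviations ran from -0.255 to 0.57 and in no comparison was every pair over 0.1. The slide as a block could not be fitted for time. For genotype, no slide held both genotypes at the same treatment and time. In a simulation of the genotype comparison in controls at 30 min, 20% of differences of 0.2 and 90% of 0.4 were called, and differences of heat effects were not simulated. It changed 50 genes of each size among 13488, with independent noise and no slide effect. In the data 34% of genes were called in that comparison, so these rates do not give its power.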
